A study of Aptenodytes patagonicus with 7 samples.

Results

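CXCL12 and CXCR4, a chemokine and its receptor, were followed in pectoralis biopsies of young king penguins (Aptenodytes patagonicus) at the passage from land to sea. The members were all probe sets of the chicken array whose single gene symbol in the platform annotation is CXCL12 or CXCR4. This gave 5 of the 36897 probe sets in the table, 4 for CXCL12 and 1 for CXCR4, and 2 of the 12920 genes with a symbol. The gene pair was selected on the log2 difference between the groups in these same birds, where a CXCL12 probe set had the largest fall, so its differences between the groups, and those of CXCR4, are described without a test.

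The sea-acclimated group (SA) had 3 birds, 2 females and 1 male, that had finished their acclimation to marine life. The never-immersed group (NI) had 4 birds, 3 females and 1 male, caught just before they first entered cold sea water. All were wild juveniles, each was biopsied once in the pectoralis, and no bird was measured both before and after. RNA of each bird was hybridized to 1 Affymetrix Chicken Genome Array, and each value below is the log2 intensity of the 1 probe kept for each probe set, on arrays that share 1 distribution of values by quantile normalization. The probes were designed on chicken sequence, and their match to penguin transcripts was not tested. Median log2 intensities lay between 8.58 and 8.59, and no bird was left out. Skeletal muscle actin (ACTA1) had the highest log2 value on every array, 15.27. SA bird 1 stood apart on the second principal component, at 50.2, against -23.1 to 5.21 in the other birds. For the member probe sets whose sign turned on it, the difference is given with and without it. Other results were not all given in this way.

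CXCL12 (stromal cell-derived factor) is a small secreted chemokine that fibroblasts and other stromal cells release and that is held on heparan sulfate in the matrix. It binds CXCR4, a receptor coupled to inhibitory G proteins, found on leukocytes, blood progenitors, endothelium and muscle progenitors, and also the scavenger receptor ACKR3, listed as CXCR7 in this annotation, which takes the ligand up. In mouse embryos the ligand and CXCR4 guide muscle progenitors on their way into the limb, and in injured mouse muscle they act in the recruitment of cells during repair.

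The 4 CXCL12 probe sets did not move together. One, Gga.9513.1.S2_at, was far lower in SA birds, a further one, Gga.9513.1.S1_a_at, was slightly lower, and the remaining pair overlapped between the groups. CXCR4 overlapped as well. In Gga.9513.1.S2_at, CXCL12 had log2 intensities of 6.66, 7.02 and 7.57 in SA birds, against 10.71, 10.56, 11.39 and 9.60 in NI birds. Every SA bird lay below every NI bird, and the lowest NI bird exceeded the highest SA bird by 2.02 log2 units. The mean log2 intensity was 7.08 ± 0.46 (SD, n = 3) in SA and 10.6 ± 0.74 (SD, n = 4) in NI, a log2 difference of -3.48 with a standard error of 0.37. The direction of this and every later difference follows the birds' labels. The study's text has its numbers of higher and lower genes the other way round from the numbers found here under those labels, whereas its list of genes taken to qPCR carries array signs that run in the direction used here. In size this difference ranked 1 among the 36897 probe sets. Over all probe sets the groups did not overlap in 10.3% (in 5.09% with SA lower), and 1.07% passed an adjusted p under 0.10 from limma in either direction (0.65% lower in SA). Those shares are printed for orientation only, since this difference selected the gene. The biopsies are whole tissue, so that fewer cells making a transcript and less transcript per cell cannot be told apart.

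**Figure D1:**
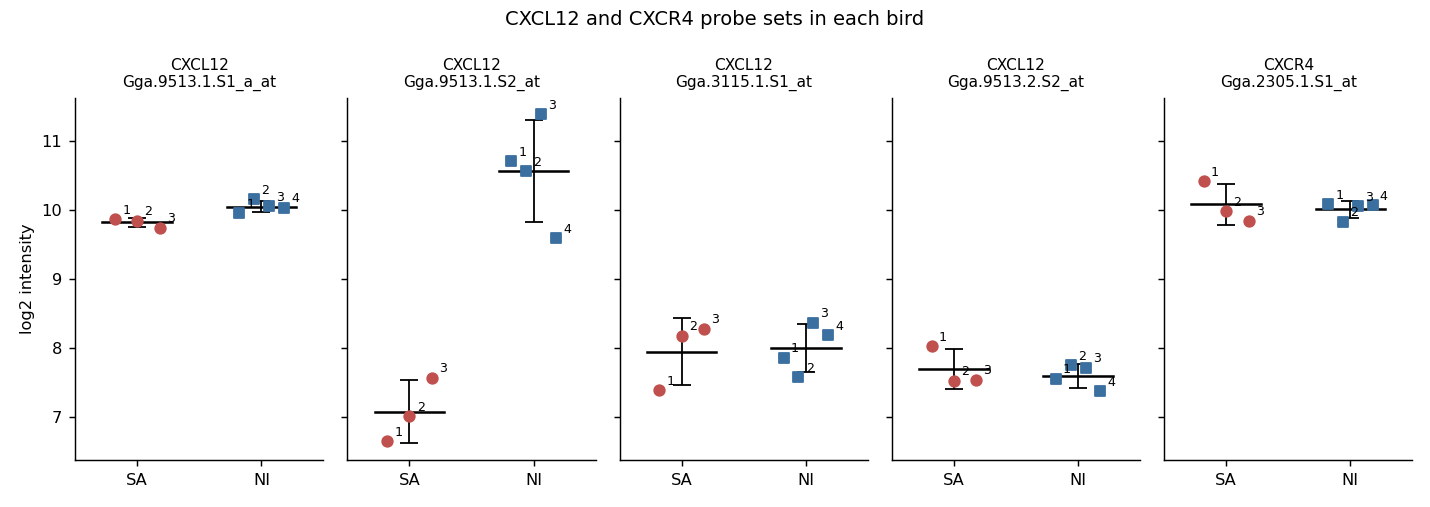
Log2 intensity (vertical axis) of the 4 CXCL12 probe sets and the CXCR4 probe set in 3 SA birds (red circles) and 4 NI birds (blue squares), numbered by bird. Horizontal lines are group means and bars are 1 SD. In Gga.9513.1.S2_at the SA birds sit between 6.66 and 7.57 and the NI birds between 9.60 and 11.39, and in the other panels the groups are close or overlap.

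In SA birds this probe set lay near the low end of the arrays. The share of probe sets with a lower log2 intensity on the same array was 0.618% in SA bird 1, 4.42% in SA bird 2 and 17.0% in SA bird 3, against 75.0% to 94.4% in NI birds. Probes differ in brightness, so these shares place the readings within the table and do not measure abundance. The lowest log2 value of the whole table was 6.44. The authors kept a probe when it exceeded the background level on at least 1 array, and the level itself is not given in the sources used here. Whether the SA readings of Gga.9513.1.S2_at exceeded background could therefore not be read from the table, and the log2 difference of -3.48 may contain an unmeasured share of background signal.

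The spread between birds was wide in the same probe set. Its SD pooled within the groups was 0.64 log2 units, larger than that of 98.4% of all probe sets, whose median was 0.185. NI bird 3 was highest at 11.39 and NI bird 4, the male of its group, lowest at 9.60, a range of 1.79 within NI. The SA birds spanned 0.92. With 1 bird left out at a time, the log2 difference stayed between -3.80 (without NI bird 4) and -3.21 (without NI bird 3).

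In Gga.9513.1.S1_a_at, the suffix of which marks a set designed on several transcripts of 1 gene, CXCL12 had log2 intensities of 9.87, 9.85 and 9.75 in SA birds, against 9.95, 10.16, 10.05 and 10.04 in NI birds. The groups again did not overlap, although the gap between them was only 0.09 log2 units. The log2 difference was -0.23 with a standard error of 0.11. This was the steadiest CXCL12 probe set, with a pooled SD of 0.076, and 3.38% of all probe sets had a smaller one. Leaving out single birds moved the difference between -0.26 and -0.19.

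The remaining CXCL12 probe sets overlapped between the groups. Gga.3115.1.S1_at, which comes from a different transcript cluster of the array design, had log2 intensities of 7.39, 8.18 and 8.28 in SA birds, against 7.87, 7.58, 8.37 and 8.19 in NI birds. SA bird 1 was the lowest of all birds and NI bird 3 the highest. The log2 difference was -0.05 (standard error 0.25), and it ran from -0.22 without SA bird 3 to 0.23 without SA bird 1. Gga.9513.2.S2_at had log2 intensities of 8.03, 7.53 and 7.55 in SA birds, against 7.56, 7.75, 7.72 and 7.38 in NI birds. SA bird 1 was above all other birds, and the other SA birds lay within the NI range. Its log2 difference was 0.10 (standard error 0.16) and became -0.06 without SA bird 1.

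Within each bird, the log2 value of Gga.9513.1.S2_at minus that of Gga.9513.1.S1_a_at was -3.21, -2.83 and -2.17 in SA birds, against 0.76, 0.41, 1.33 and -0.44 in NI birds. The zero of such a difference has no meaning, because the probes differ in brightness, but its mean moved by -3.25 between the groups. Thus 2 probes assigned to the same gene and the same cluster changed unequally in the same RNA samples. Averaged over its 4 probe sets, CXCL12 had log2 values of 7.99, 8.14 and 8.29 in SA birds, against 9.02, 9.01, 9.38 and 8.80 in NI birds. The averaged log2 difference was -0.92 (standard error 0.14), and nearly all of it came from Gga.9513.1.S2_at.

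The distance between the most positive and the most negative log2 difference of the CXCL12 probe sets was 3.58. The median over the 872 genes with 4 probe sets was 0.381. Since CXCL12 was selected on the difference that makes up nearly all of this distance, its size is a description only. None of the 7096 genes with 2 or more probe sets had a larger distance, which the selection largely fixes. Of 128 genes with several probe sets and at least 1 of them lower in SA at an adjusted p under 0.10 from limma, 119 (93.0%) had exactly 1 such probe set. Only 0.65% of all probe sets passed in that direction. Probe sets of 1 gene need not pass independently, so this share does not tell how often exactly 1 would pass. A probe set that misses the threshold need not disagree, and the count of 119 does not measure disagreement. The RefSeq annotation of the king penguin assembly bAptPat1.pri lists 2 mRNAs for CXCL12 and 1 for CXCR4. Which of them each chicken probe binds was not tested.

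**Figure D2:**
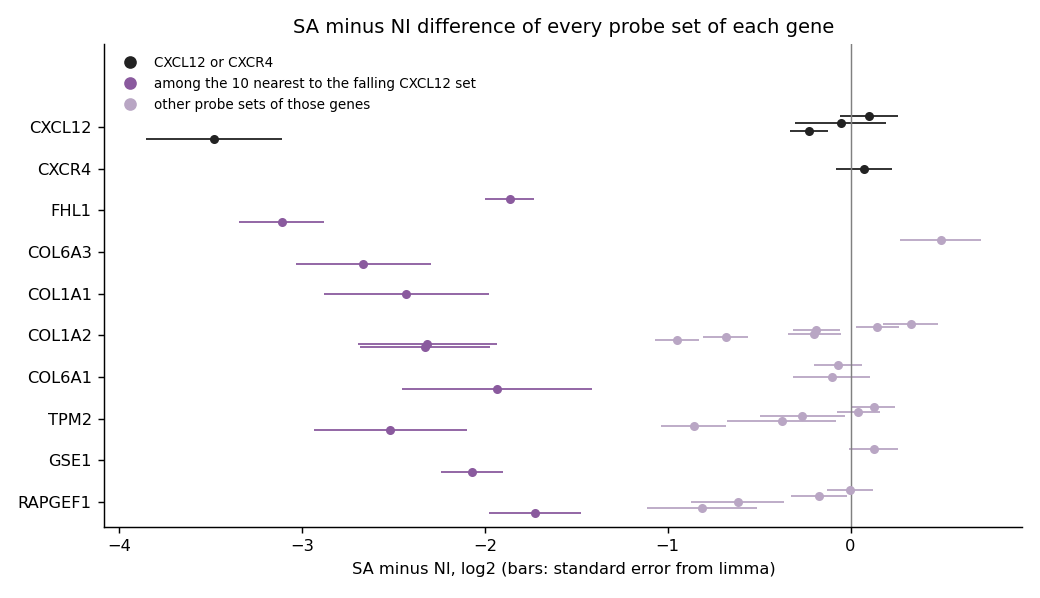
SA minus NI log2 difference (horizontal axis, bars are standard errors from limma) of every probe set of CXCL12, CXCR4 and the genes whose pattern over the birds was nearest to Gga.9513.1.S2_at. One CXCL12 probe set lies at -3.48 and the other 3 between -0.23 and 0.10, with CXCR4 at 0.07.

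CXCR4, the receptor, had log2 intensities of 10.42, 9.99 and 9.85 in SA birds, against 10.09, 9.83, 10.06 and 10.07 in NI birds. SA bird 1 was the highest of all birds, and the other SA birds lay within the NI range. The mean was 10.09 ± 0.30 (SD, n = 3) in SA and 10.01 ± 0.12 (SD, n = 4) in NI, a log2 difference of 0.07 with a standard error of 0.15, smaller than the SD within either group. Without SA bird 1 it was -0.09 and without SA bird 3 it was 0.19, so its sign turned on single birds. The pooled SD of 0.21 was larger than that of 60.0% of all probe sets.

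Sex was compared as a contrast that had not selected the genes, between 2 males and 5 females with the group as a term. In Gga.9513.1.S2_at the log2 difference of males minus females was -0.34 (standard error 0.42), in Gga.9513.1.S1_a_at -0.06 (standard error 0.12), and in CXCR4 -0.12 (standard error 0.17). The value for Gga.9513.1.S2_at averages opposite gaps. There the male was the lowest NI bird at 9.60 and the highest SA bird at 7.57. Its SA minus NI log2 difference was less negative in males than in females, by 2.03, which rests on 1 male in each group. The smallest unadjusted p of the 5 was 0.134, for Gga.9513.2.S2_at at -0.27, and none passed an adjusted p under 0.10 from limma, as for 0 of all 36897 probe sets (969 at an unadjusted p under 0.05). With 2 males this comparison is weak.

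The probe sets nearest to Gga.9513.1.S2_at were sought by the root mean square difference of log2 values over the 7 birds, after subtraction of each probe set's mean. The median of this distance over all probe sets was 1.82 log2 units, and 19 probe sets lay under 1. Among the 10 nearest with a gene symbol, 5 belonged to 4 chains of fibrillar and type VI collagen, the proteins that fibroblasts lay down around muscle fibres. The distance includes the group difference that selected CXCL12, so it favours probe sets with large falls. The share of collagens among large falls was not counted, so these 5 are a description only. FHL1, a muscle protein built of LIM domains, was nearest at 0.54 log2 units, with log2 intensities of 8.89, 9.17 and 9.76 in SA birds, against 12.72, 12.61, 12.09 and 12.10 in NI birds. COL6A3, a chain of collagen VI, followed at 0.64, with log2 intensities of 8.40, 7.95 and 9.50 in SA birds, against 11.94, 11.19, 11.27 and 10.73 in NI birds. COL1A1, a chain of collagen I, lay at 0.65, with log2 intensities of 7.36, 7.54 and 8.84 in SA birds, against 11.16, 10.27, 10.62 and 9.32 in NI birds. The order of the birds was shared in part. SA bird 3 was the highest SA bird in 9 of the 10, SA bird 1 the lowest in 7 and NI bird 4 the lowest NI bird in 8, as in CXCL12, but NI bird 3, the highest NI bird in CXCL12, was the highest in 1 of the 10, where NI bird 1 was the highest in 7. Nearness itself favours a shared order. Over all probe sets SA bird 3 was the highest SA bird in 26.6% and SA bird 1 the lowest in 38.2%. NI bird 4 was the lowest NI bird in 23.7%, NI bird 1 the highest in 29.6% and NI bird 3 the highest in 24.6%. Both SA bird 3 and NI bird 4 were the males of their groups. With 1 male in each group, an order by sex and an order by single birds cannot be told apart.

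The other near probe sets were 2 of COL1A2 (0.66 and 0.71), and 1 each of COL6A1 (0.87), the tropomyosin TPM2 (0.87), GSE1 (0.87) and RAPGEF1 (0.94), an exchange factor for the small G protein Rap, with a further one of FHL1 (0.92). Their log2 differences between SA and NI ran from -1.73 (RAPGEF1) to -2.52 (TPM2), which the choice by nearness to CXCL12 largely fixes. In COL6A1 the groups overlapped, as NI bird 4 at 8.82 lay below SA bird 3 at 9.10. As in CXCL12, other probe sets of some of these genes behaved differently. A further COL6A3 probe set had a log2 difference of 0.49 (standard error 0.22) and a further GSE1 probe set 0.13 (standard error 0.13), whereas both probe sets of FHL1 were lower in SA, with log2 differences of -3.11 and -1.86. The other COL6A1 probe sets lay at -0.10 and -0.07. The other probe sets of COL1A2 ran from -0.95 to 0.33, of TPM2 from -0.86 to 0.13 and of RAPGEF1 from -0.81 to -0.005.

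**Figure D3:**
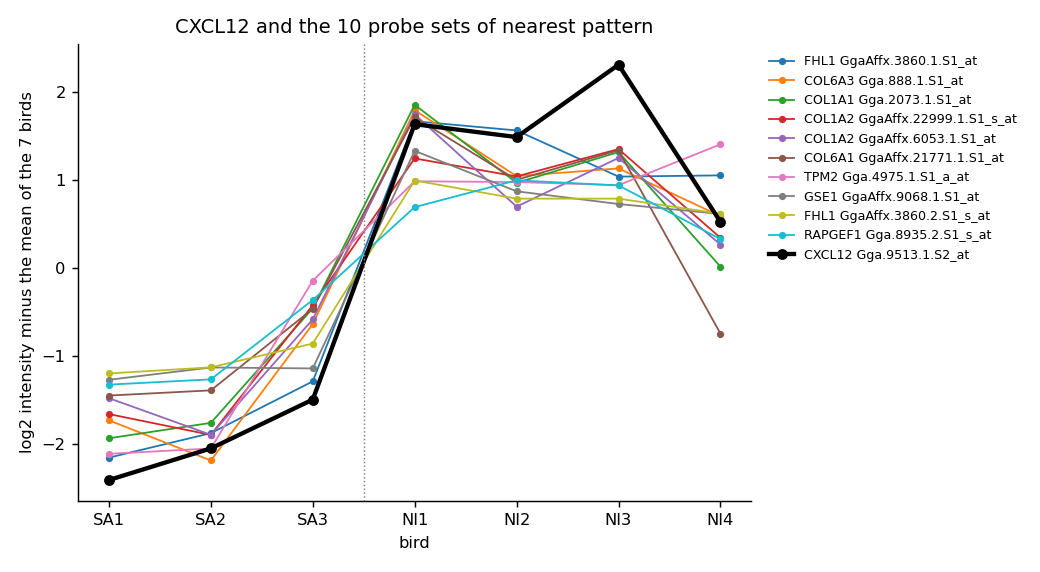
Log2 intensity minus the mean over the 7 birds (vertical axis) for the CXCL12 probe set Gga.9513.1.S2_at (black) and the 10 probe sets nearest to it, in 3 SA and 4 NI birds. Lines join the values of 1 probe set and imply no order of the birds. SA bird 3, the male of its group, is the highest SA bird in 9 of the 10 near probe sets.

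For CXCR4 the same search gave SH3GL1 (0.03 log2 units), an endophilin of membrane uptake, RPL15 (0.03), DDX41 (0.05), SPAG9 (0.05) and an uncharacterized locus (0.05). The median distance over all probe sets was 0.25, because CXCR4, like most probe sets, varied little between birds. All 5 overlapped between the groups, with log2 differences from 0.04 to 0.13.

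The other genes of the pathway were taken from 6 lists, with each gene represented by its brightest probe set and with CXCL12 and CXCR4 left out. Of 158 genes measured, 2 were lower in SA and none was higher by this probe set at an adjusted p under 0.10 from limma, 1.27%, against 1.55% of all 12920 genes. The share at an unadjusted p under 0.05 was 14.6%, against 12.4% of all genes, and the median log2 difference was -0.01, against 0.00 for all genes. The share that passed was thus near that of the whole array. Both genes that fell came from the list of enzymes and matrix partners that cleave or bind the ligand.

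Of 14 other chemokine ligands none passed (limma, 2 at an unadjusted p under 0.05), and their median log2 difference was -0.01. CCLI5, a CC chemokine, had log2 intensities of 9.60, 9.48 and 9.25 in SA birds, against 9.74, 9.72, 9.99 and 9.90 in NI birds. The groups did not overlap, but the log2 difference of -0.39 (standard error 0.13) gave a limma adjusted p of 0.278. CCL4 lay at -0.36 and XCL1, which attracts T cells, at 0.27, and neither passed. Of 12 other chemokine receptors none passed (limma, 0 at an unadjusted p under 0.05), with 9 of positive sign and a median log2 difference of 0.05. CXCR7, the scavenger receptor of CXCL12, had log2 intensities of 9.23, 9.41 and 9.48 in SA birds, against 9.04, 9.37, 9.11 and 8.92 in NI birds. NI bird 2 lay among the SA birds, and the log2 difference was 0.26 (standard error 0.13, limma adjusted p = 0.562). CCR9 lay at 0.44, CCR8 at -0.18 and CD74, a receptor of the cytokine MIF that can pair with CXCR4, at 0.27, and none passed.

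Of 29 enzymes and matrix partners, FN1 and MMP2 were lower in SA (limma, 8 of the 29 at an unadjusted p under 0.05, against 12.4% of all genes). The groups did not overlap in 10 of the 29, against 10.3% of all probe sets. That share is over every probe set and not only the brightest of each gene, so the bases differ. In this list 16 genes had a positive and 13 a negative sign, with a median log2 difference of 0.05. FN1, fibronectin, a matrix protein that can hold CXCL12, had log2 intensities of 10.10, 10.11 and 10.53 in SA birds, against 11.71, 11.31, 11.24 and 11.50 in NI birds. No SA bird reached the NI range. SA minus NI was -1.19 log2 units (standard error 0.16, limma adjusted p = 0.0229), and this probe set passed in each of the 7 fits that left out 1 bird. Of the 8 FN1 probe sets, 3 passed, at -1.37, -1.19 and -1.10, and the others ran from -0.87 to 0.25, and FN1 did not pass by the mean of its probe sets. MMP2, a gelatinase that clips and inactivates CXCL12, had log2 intensities of 7.91, 7.90 and 7.85 in SA birds, against 8.36, 8.58, 8.57 and 8.38 in NI birds. SA minus NI was -0.59 log2 units (standard error 0.11, limma adjusted p = 0.0639), and it passed in none of the 7 fits that left out 1 bird, nor with sex as a term. The collagenase MMP1 (-0.79) and the heparan sulfate sulfotransferases HS6ST1 (-0.56) and HS2ST1 (0.38) did not pass. DPP4, the peptidase that removes the first residues of CXCL12, was looked up after its values were seen. It had log2 intensities of 8.21, 10.32 and 11.70 in SA birds, against 8.28, 10.88, 8.46 and 11.84 in NI birds. Both groups thus held low and high birds, and the log2 difference was 0.21 with a standard error of 0.99.

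Of 50 genes of signalling below CXCR4, none passed (limma, 6 at an unadjusted p under 0.05), with 35 of negative sign and a median log2 difference of -0.06. PIK3CB, a catalytic subunit of PI3 kinase, came nearest, with log2 intensities of 8.92, 9.14 and 9.41 in SA birds, against 10.02, 10.81, 9.94 and 9.94 in NI birds. The groups did not overlap, and the log2 difference of -1.02 (standard error 0.22) gave a limma adjusted p of 0.108. The protein kinase C isoform PRKCA (-0.51), the exchange factor VAV3 (-0.51), the phosphatase PTPN11 (0.48) and the small G protein RAC1 (0.35) did not pass. Of 26 genes of receptor desensitization and turnover, none passed (limma, 1 at an unadjusted p under 0.05), and the recycling G protein RAB11A lay at -0.43. A dimmer probe set of RGS3, which speeds the switching off of G proteins, passed with SA higher. It had log2 intensities of 8.27, 8.03 and 8.24 in SA birds, against 7.58, 7.39, 7.43 and 7.45 in NI birds, without overlap. SA minus NI was 0.72 log2 units (standard error 0.11, limma adjusted p = 0.0377). The brightest RGS3 probe set lay at -0.08 (limma adjusted p = 0.879). The dimmer one was found by looking through every probe set of the pathway genes. Of all probe sets, 0.417% passed with SA higher.

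Of 27 factors held to act on transcription of CXCL12 or CXCR4, none passed (limma, 6 at an unadjusted p under 0.05), with a median log2 difference of 0.04. FOXO1, a factor of fasting and muscle breakdown, lay at 1.29 (standard error 0.35, limma adjusted p = 0.188) with no overlap between the groups. The coactivator PPARGC1A lay at -1.02, the endothelial factor KLF2 at -0.91 and the oxygen sensor EGLN1 at 0.32, and none of these passed. The hypoxia factor HIF1A, chosen after its values were seen, had a log2 difference of 0.13 (standard error 0.16), with overlap between the groups.

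**Figure D4:**
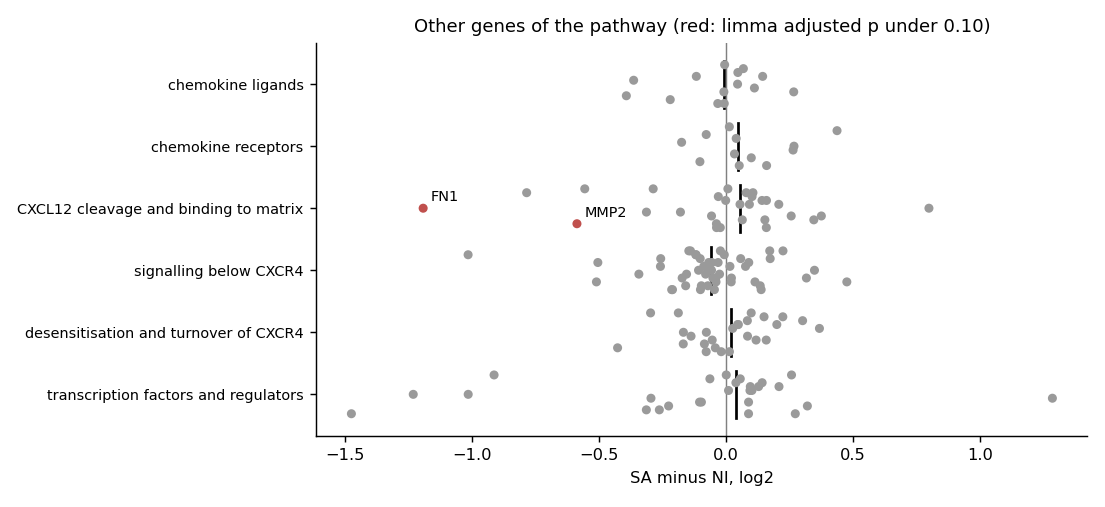
SA minus NI log2 difference (horizontal axis) of each gene of the 6 pathway lists, by its brightest probe set. Black ticks are list medians, between -0.06 and 0.05, and red points are the 2 genes past an adjusted p of 0.10 from limma, FN1 and MMP2.

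Markers of the cell types that could carry the ligand or the receptor were compared between the groups in the same fit. Of 21 fibroblast markers, 4 were lower in SA and none was higher, 18 had a negative sign, and the median log2 difference was -0.21, against 0.00 for all genes, of which 0.967% were lower. They were COL1A2, by its brightest probe set (-0.95), FN1 (-1.19), COL6A3 (-2.66) and COL1A1 (-2.43). COL1A2, FN1 and COL6A3 passed in each of the 7 fits that left out 1 bird, and COL1A1 passed in 2 of these. Decorin (DCN), a small proteoglycan of collagen fibrils, lay at -1.54 (standard error 0.34, limma adjusted p = 0.110). The fall was uneven over the list. Some of the 18 negative differences were small, such as those of LUM (-0.07) and THY1 (-0.08), and 3 markers had a positive sign. The mean log2 level of the whole fibroblast list was between 9.28 and 9.69 in SA birds, against 9.89 to 10.25 in NI birds. SA bird 3 was the highest SA bird and NI bird 4 the lowest NI bird by this mean, as in Gga.9513.1.S2_at. Both were the males of their groups. The other ends differed. By this mean SA bird 2 was the lowest SA bird and NI bird 1 the highest NI bird, where Gga.9513.1.S2_at had SA bird 1 and NI bird 3. COL6A3 and COL1A1 entered the list by probe sets also found by nearness to Gga.9513.1.S2_at, so part of the match was built in. The separation of the groups by the list mean was not confined to the fibroblast list. The mean log2 level of the nerve and Schwann cell list was between 9.20 and 9.22 in SA birds, against 9.47 to 9.55 in NI birds, and that of the skeletal muscle list between 13.11 and 13.18 in SA birds, against 13.31 to 13.45 in NI birds. The falls were uneven. MBP (-1.24) and NEFL (-0.67) fell most of 7 nerve markers (4 of negative sign, median log2 difference -0.14). CASQ2 (-1.32) and TNNC2 (-0.94) fell most of 13 muscle markers (8 of negative sign, median -0.08). The mean of the adipocyte list was higher in every SA bird, at 9.79 to 9.89, against 9.62 to 9.77 in NI birds. Its 10 markers did not rise together, with 6 of positive and 4 of negative sign and a median log2 difference of 0.05. The largest rises were those of RBP7 (1.13) and G0S2 (0.74). Without overlap between the groups, FABP4 lay at 0.28 and LPL at -0.26. The part of these markers in the CXCL12 difference was not tested.

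The mean levels of the marker lists of cells that usually carry CXCR4 overlapped between the groups. Single genes without overlap were KDR (0.36) and ENG (-0.19) of 16 endothelial markers and LCP1 (0.25) of 16 leukocyte markers. Over all probe sets, not only the brightest of each gene, the groups did not overlap in 10.3%. None of 16 leukocyte markers passed (limma, 1 at an unadjusted p under 0.05), and their mean log2 level was between 9.07 and 9.22 in SA birds, against 8.98 to 9.17 in NI birds. This overlap came from SA bird 1 at 9.07, the bird that stood apart above. SA birds 2 and 3, at 9.22 and 9.18, lay above every NI bird, SA bird 3 only narrowly. None of 16 endothelial markers passed (limma, 1 at an unadjusted p under 0.05), with a mean log2 level from 9.95 to 9.97 in SA birds, against 9.83 to 9.99 in NI birds. None of 11 satellite cell markers passed (limma, 1 at an unadjusted p under 0.05), with a mean log2 level from 9.65 to 9.80 in SA birds, against 9.59 to 10.01 in NI birds, nor any of 8 smooth muscle and pericyte markers (limma, 0 at an unadjusted p under 0.05). No marker can read 0 on these arrays, since dim probes keep a background signal.

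Other lists held a few genes past the threshold. Of 7 nerve and Schwann cell markers, MBP, the myelin basic protein, was lower in SA (-1.24, limma adjusted p = 0.0377). Of 8 erythroid markers the transferrin receptor TFRC was lower (-1.64, limma adjusted p = 0.0733). The erythroid list had 2 positive and 6 negative signs, with a median log2 difference of -0.02. RHAG lay at 0.58, and the list mean overlapped between the groups, at 10.51 to 10.83 in SA birds, against 10.60 to 11.07 in NI birds. Of 10 adipocyte markers, the lipolysis inhibitor G0S2 (0.74, limma adjusted p = 0.0254) and the retinol binding protein RBP7 (1.13, limma adjusted p = 0.0714) were higher, as were 0.58% of all genes. Of 13 skeletal muscle markers, the calcium store protein CASQ2 (-1.32) and the fast troponin C TNNC2 (-0.94) were lower. Among all genes, 0.967% passed with SA lower. With 1 bird left out at a time, MBP passed in 4 of 7 fits, TFRC in 2, RBP7 in 1, CASQ2 and TNNC2 in 6 and G0S2 in all 7.

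**Figure D5:**
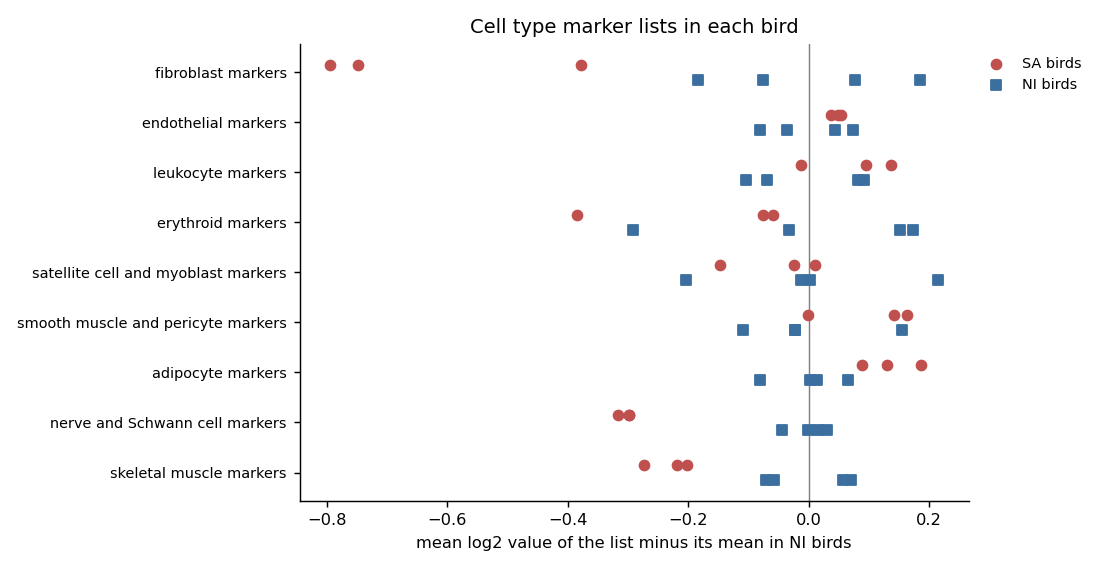
Mean log2 value of each cell type marker list in each bird, minus its mean over NI birds (horizontal axis), for 3 SA birds (red circles) and 4 NI birds (blue squares). The fibroblast, nerve and skeletal muscle lists are lower in all SA birds than in any NI bird, the adipocyte list is higher, and the leukocyte, endothelial and satellite cell lists overlap. In the leukocyte list only SA bird 1 lies within the NI range.

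The genes beside CXCL12 and CXCR4 on the king penguin chromosomes were looked up in the RefSeq gene order, a choice made after the values were seen. Of the 12 protein-coding genes within 3 steps, 5 had a probe set of the same symbol. Their log2 differences were 0.15 for ERCC6 and -0.13 for DRGX beside CXCL12, and -0.12 for MCM6, -0.04 for LCT and 0.13 for THSD7B beside CXCR4. None passed an adjusted p under 0.10 from limma, nor an unadjusted p under 0.05.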

How the data were processed

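Total RNA from pectoralis biopsies of 3 SA and 4 NI penguins was hybridized to chicken arrays, 1 per bird. For the deposited log2 intensities the authors discarded probes that never exceeded background, let the probe ranking highest over all arrays stand for its probe set, and brought the arrays to 1 distribution by quantiles. Background subtraction is not given in the sources used here.

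From these log2 values, SA minus NI was fitted for all 36897 probe sets by lmFit and eBayes of limma (version 3.58.1, R version 4.3.3), and p-values were adjusted by Benjamini-Hochberg with a threshold of 0.10, as in the study's methods. No probe set was filtered out. The fit was tested on simulated data. Symbols are those of the platform annotation, where 26108 probe sets carried 1, 171 several and 10618 none. A gene of a list was represented by its probe set with the highest mean. The 7 birds limit the precision.

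Members, the 6 pathway and 9 marker lists and the tests were chosen with earlier results of these data known. The genes to be named were the members and the 10 and 5 probe sets nearest to CXCL12 and CXCR4. In each list they were those past the threshold and up to 4 (pathway) or 2 (marker) others of smallest p. The text departs from this in places. The signalling list names more than 4 others, and some genes were named outside this order, among them DPP4, HIF1A and ENG. Alternatives tried were other normalizations, leaving out dim probe sets, array weights, priors with a trend or made robust, a stricter threshold, a term for sex or for replicate number, each bird omitted in turn and other probe sets of a gene.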

Additional observations from a re-analysis of the deposited data

Results flagged for a closer look

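In CXCR4, NI bird 2 stood apart from the other NI birds at a log2 intensity of 9.834, while the rest of NI lay between 10.06 and 10.09. In the TPM2 probe set nearest to CXCL12, NI bird 4 stood apart at 13.72, while the rest of NI lay between 13.26 and 13.30. In the mean over the list of transcription factors, NI bird 4 stood apart at 10.18, while the rest of NI lay between 10.30 and 10.32. These are 3 of 44 groups of 4 NI birds examined for a bird far from the others, and chance alone gives about 1 in 20.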

How the results depend on the processing

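The log2 difference of the CXCL12 probe set Gga.9513.1.S2_at stayed between -3.80 and -3.21 in every setting run. With 1 bird left out, those of Gga.9513.1.S1_a_at, Gga.3115.1.S1_at, Gga.9513.2.S2_at and CXCR4 ran from -0.26 to -0.19, from -0.22 to 0.23, from -0.06 to 0.19 and from -0.09 to 0.19. The probe sets that passed, 394 as reported, numbered 95 to 487 with 1 bird left out (NI bird 2 gave 95 when left out, SA bird 3 gave 139, NI bird 1 gave 157, SA bird 2 gave 180 and NI bird 4 gave 243), 175 at an adjusted p under 0.05, 766 with array weights and 624 with the replicate block, for which NI bird 4 was left out. The genes of the pathway lists that passed, 2 as reported, numbered 1 to 2 with 1 bird left out, 1 with sex as a term, at an adjusted p under 0.05 or by the mean of the probe sets (MMP2, with FN1 lost), and 4 with array weights or with the replicate block. With array weights, 2 of the 4 came from the list of signalling below CXCR4, where none passed as reported. No bird was in both groups, so equal numbers do not mark the same bird. The deviations of equally numbered birds correlated at 0.346, -0.03 and 0.16 over probe sets. Among NI birds 1 to 3, SA birds 1 and 3 correlated best with the bird of their own number, and SA bird 2 with NI bird 3. The deviations were taken from the mean of these few birds in each group, so some bird must correlate best. This order therefore cannot show whether the numbers pair the birds. Why the counts moved was not tested. For males minus females, the differences of Gga.9513.1.S1_a_at, Gga.3115.1.S1_at and Gga.9513.2.S2_at ran from -0.11 to -0.02, from 0.19 to 0.51 and from -0.37 to -0.17 with 1 bird left out, while that of Gga.9513.1.S2_at ran from -1.29 to 0.74, positive without NI bird 4, and that of CXCR4 from -0.35 to 0.079, positive without SA bird 3. The probe sets that passed between sexes numbered 0 to 8. A probe set at the low end of the arrays has an unknown share of background, which limits the size of its difference.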
